A study of Mus musculus with 183 samples.

Results

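The mRNAs described here encode zinc finger proteins whose mouse symbol is Zfp followed by a number. They were taken from the authors' deposited table of mRNAs by symbol alone, without Zfp36, Zfp42, Zfp473 and Zfp598, and 106 of the 7240 mRNAs in that table met the rule. The symbol fits 361 protein-coding genes in the Gencode M21 annotation, so the 106 are those with enough crosslinked fragments to be listed. Every member had counts in the half-life experiment and coordinates on GRCm38.

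Decay was followed in 47 libraries of mouse embryonic stem cells (mESCs). Clone 5F is Skiv2l fl/fl and clone 7E is Aven-/- Skiv2l fl/fl. Both carry CreERT2, a recombinase that 4-hydroxytamoxifen (4OHT) activates, and were collected before (day 0) and after 4 days in 0.1 µM 4OHT (day 4). On each day the cells were mock treated (0 min) or exposed to actinomycin D, which blocks transcription, for 120, 240 or 360 min. Each of the 16 groups held 3 libraries, except clone 5F at day 0 and 120 min with 2. Clone 7E was made in cells whose Skiv2l bears a 3xFLAG-Avi tag and whose Rosa26 locus also holds the biotin ligase BirA, while clone 5F has CreERT2 alone and no tag. Each genotype is represented by 1 clone, so loss of Aven, the tag, BirA and the clone cannot be told apart. The replicates are described as technical, and p-values therefore measure the spread between these libraries only. The 7E libraries are labelled with the tag and Aven-/- but without the floxed allele, which comes from their titles.

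Gene counts ranged from 24440935 to 34114250 per library. Aven had between 998 and 1012 normalized counts in the mock libraries of clone 5F at day 0 and between 56.6 and 86.0 in those of clone 7E. Skiv2l had 4149.6, 4136 and 4205 normalized counts in clone 5F at day 0 and 4415, 3825 and 4162 at day 4, so the library labels of this clone could not be checked from the whole-gene count, which includes the exons outside the deleted part. In clone 7E the values were 968, 1038 and 903 at day 0 and 406, 389 and 368 at day 4, below clone 5F on both days. The mESC markers Pou5f1, Nanog, Sox2, Esrrb, Tdgf1 and Dppa5a summed to between 2186 and 2972 CPM (counts relative to the library total) in the mock libraries. In 11 of the 15 groups of 3, 1 library stood apart, differing from each of the others at least 2 times as much as these did from each other (chi-square of counts per degree of freedom). At 240 min of day 0 it was replicate 2 in both clones (75.8 and 117 against 14.5 in clone 5F, 84.8 and 94.2 against 9.55 in clone 7E). Among the mock libraries it was replicate 2 of clone 5F at day 0 (6.47 and 7.75 against 3.01) and replicate 3 of clone 7E at day 4 (16.2 and 16.2 against 6.30). In the mock libraries primitive endoderm markers summed to at most 69.0 CPM, germ layer markers to at most 70.9 and fibroblast markers to at most 9.27. Markers were not summed in the actinomycin D libraries.

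Most Zfp proteins are C2H2 zinc finger proteins, in which a cysteine pair and a histidine pair hold a zinc ion and each finger contacts a few bases of DNA. Many also carry a KRAB box, which recruits the corepressor TRIM28 and, through SETDB1 and HP1 proteins, places H3K9me3 heterochromatin on retrotransposons and imprinted loci. Their mRNAs are regulatory mRNAs of the kind that often turn over quickly. MTR4 is a helicase of the nuclear exosome, SKIV2L is the helicase that feeds mRNA into the cytoplasmic exosome, XRN1 degrades decapped mRNA from the 5′ end, and AVEN binds RNA and interacts with the Ski complex.

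What joins many of these mRNAs is the stretch that codes for the linker between neighbouring fingers, a histidine followed by threonine, glycine, glutamate, lysine and proline. It was present in 49 of the 99 members with a transcript sequence of the deposited length and in 98 of the 6725 mRNAs of the whole table with such a sequence. The first such stretch in 5 of the 6 members with the shortest half-lives is shown, 5′ to 3′ on the coding strand. It was also found in members with longer half-lives, such as Zfp568. Half-lives of members with and without the stretch were not compared. The lower-case codon is the last histidine of a finger, and the capitals mark the 15 bases that code for the linker.
Zfp105: cacACTGGGGAGAAGCCC
Zfp84: cacACGGGGGAGAAACCC
Zfp472: cacACTGGTGAGAAACCT
Zfp46: cacACCGGCGAGAAGCCT
Zfp719: cacACTGGTGAGAAACCT

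On GRCm38 these stretches lie in coding exons on the plus strand. That of Zfp105 is at chr9:122929986-122930003 in exon 4 of 4, that of Zfp84 at chr7:29776695-29776712 in exon 5 of 5, and that of Zfp472 at chr17:32977691-32977708 in exon 4 of 4. Those of Zfp46 and Zfp719 are at chr4:136290448-136290465 in exon 3 of 3 and at chr7:43590076-43590093 in exon 4 of 4. Zfp472 and Zfp719, which lie on different chromosomes, hold the same 18 bases. The coding sequences of Zfp105, Zfp84, Zfp472, Zfp46 and Zfp719 hold 4, 5, 6, 7 and 8 linker stretches. Zfp296, also among the 6, has 6 fingers by pattern and no such stretch. The spellings cacACTGGAGAGAAGCCC and cacACTGGGGAGAAGCCC were each found in 6 members, and they occurred in 7 and 8 mRNAs of the table. Not every spelling was ranked, so others may be as frequent or more so. Only uniquely mapped reads of 50 nt were counted, and such a read over a shared stretch also covers bases beside it.

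The Zfp mRNAs decayed faster than most mRNAs in every group. In clone 5F at day 0 their median half-life was 125 min, against 287 min over the 7240 mRNAs, and the middle 50% of members lay between 97.9 and 209 min. After 120, 240 and 360 min of actinomycin D the median member retained 32.1%, 20.1% and 13.2% of its mock level, whereas the median mRNA retained 61.0%, 49.1% and 41.3%. The half-life of 93 of 106 members was below the median of the table, 74 were among the shortest 25% and 51 among the shortest 10%. The members ranged from 63.6 to 556 min.

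**Figure D1:**
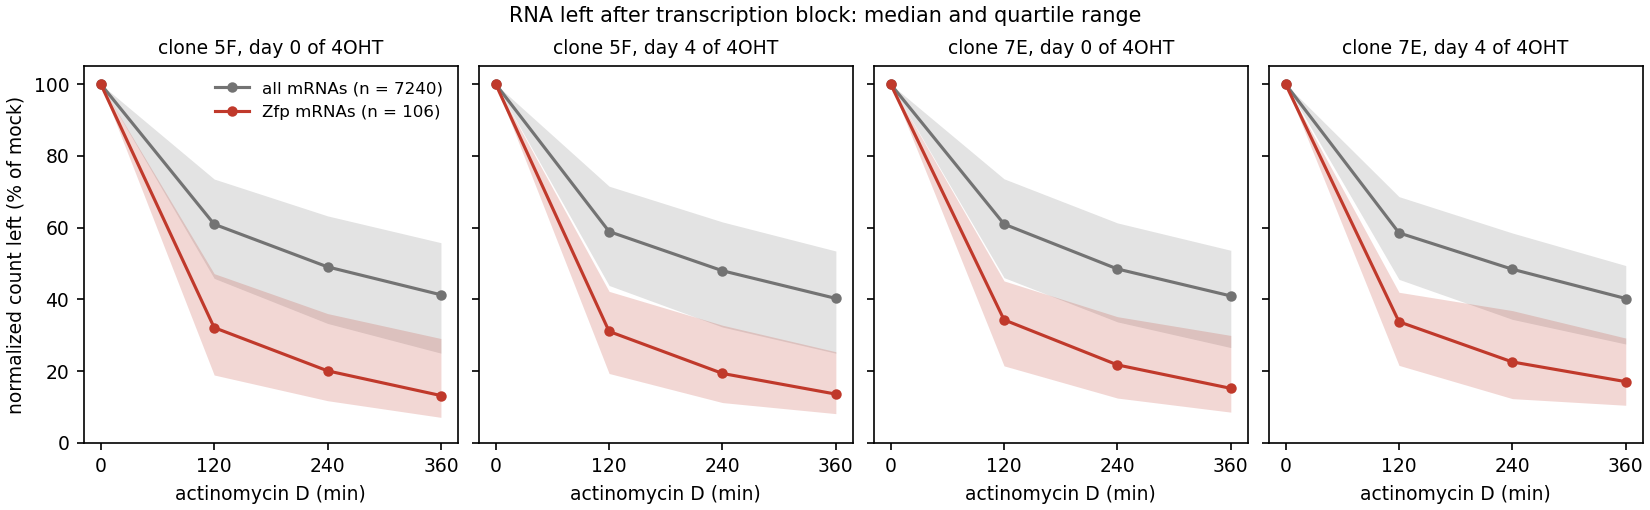
Normalized count left, as a percentage of the mock libraries, against minutes of actinomycin D for each clone and day; lines are medians and bands the quartile range over the 106 Zfp mRNAs (red) and all 7240 mRNAs (grey). In clone 5F at day 0 the Zfp median is 32.1% at 120 min against 61.0% for all mRNAs.

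The gap was similar in the other groups. The median half-life of the members was 129 min in clone 5F at day 4, 138 min in clone 7E at day 0 and 146 min in clone 7E at day 4, and that of all mRNAs was 285, 288 and 285 min. Member half-lives in clone 5F at day 0 and clone 7E at day 0 had a Spearman rho of 0.99 over the 106 members, a description across genes that share the libraries' scaling. The fall was steeper early than late: the mock and 120 min libraries alone gave a median half-life of 73.3 min in clone 5F at day 0, and leaving out 360 min gave 104 min. The minutes therefore depend on the window, and also on the single spike-in factor of each time point, 0.649, 0.531 and 0.438 at 120, 240 and 360 min.

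To compare each member with the typical gene, slopes were fitted in edgeR's quasi-likelihood test with size factors over the libraries of a group, so that a negative slope marks a faster fall than that of the typical gene. In clone 5F at day 0, 85 of 106 members (80.2%) were faster at an adjusted p (Benjamini-Hochberg) below 0.05, where 33.9% of the 17032 genes tested and 35.8% of the mRNAs of the table were. Another 6 members were slower, where 29.9% of all genes tested were. In clone 5F at day 4, 88 members were faster and 6 slower, against 32.1% and 29.4% of all genes tested. In clone 7E at day 0, 81 members were faster and 6 slower, against 32.4% and 29.2%. In clone 7E at day 4, 84 were faster and 6 slower, against 28.4% and 24.8%. The median member slope was -0.26, -0.25, -0.22 and -0.19 log2 per hour in these groups, and the median over all genes tested in clone 5F at day 0 was 0.00.

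Across the 4 groups, 81 members were faster in each, and 5 members, Zfp106, Zfp277, Zfp346, Zfp444 and Zfp512, were slower in each. Of all genes tested in clone 7E at day 4, 28.4% were faster and 24.8% slower. The share of these genes called in all 4 groups cannot exceed those values and is not given here. The 9 members Zfp358, Zfp369, Zfp395, Zfp414, Zfp428, Zfp580, Zfp638, Zfp687 and Zfp692 passed the test in neither direction in any group. Without the mock libraries, 59, 55, 56 and 39 members were faster in the same order, where 20.4%, 19.9%, 20.9% and 14.3% of all genes tested were. The share of members therefore stayed above that of all genes when the first 120 min were not used, although fewer passed.

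The shortest half-lives belonged to Zfp105, Zfp296, Zfp84, Zfp472, Zfp46 and Zfp719. Zfp105 had 1751, 1434 and 1774 normalized counts in the mock libraries of clone 5F at day 0, then 148 and 142 after 120 min, 41.5, 67.2 and 64.3 after 240 min and 29.8, 30.2 and 29.9 after 360 min. No library at one time overlapped those of another, and the half-life was 63.6 min (57.7 to 70.8 for 1 SE of the slope). The slope was -0.77 ± 0.06 log2 per hour relative to the typical gene (adjusted p = 3.27e-08, edgeR).

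Zfp296 encodes a zinc finger protein of pluripotent cells. It had 972, 1188 and 1008 normalized counts in the mock libraries, 90.7 and 132 after 120 min, 54.3, 20.0 and 33.6 after 240 min and 24.0, 24.4 and 18.3 after 360 min, so the libraries at 240 and 360 min overlapped. Its half-life was 64.9 min, and it remained between 63.8 and 65.2 min in the other groups. Zfp84 fell from 1077, 1091 and 1212 counts to 161 and 149, then to 56.7, 55.2 and 61.9, and to 28.1, 28.8 and 30.8 at the last time. Its half-life was 69.4 min, with no overlap between times.

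Zfp472, with a KRAB pattern and 12 fingers, had a half-life of 70.5 min, and Zfp719, with a KRAB pattern and 13 fingers, had 77.5 min. Zfp46 was the lowest of the 6 in count, with 319.9, 303 and 250.2 normalized counts in the mock libraries and 7.04, 7.10 and 9.83 after 360 min. At such counts the added pseudocount of 1 weighs on the slope. Its half-life was 72.0 min and the slope relative to the typical gene -0.71 ± 0.07 log2 per hour (adjusted p = 1.01e-06, edgeR).

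**Figure D2:**
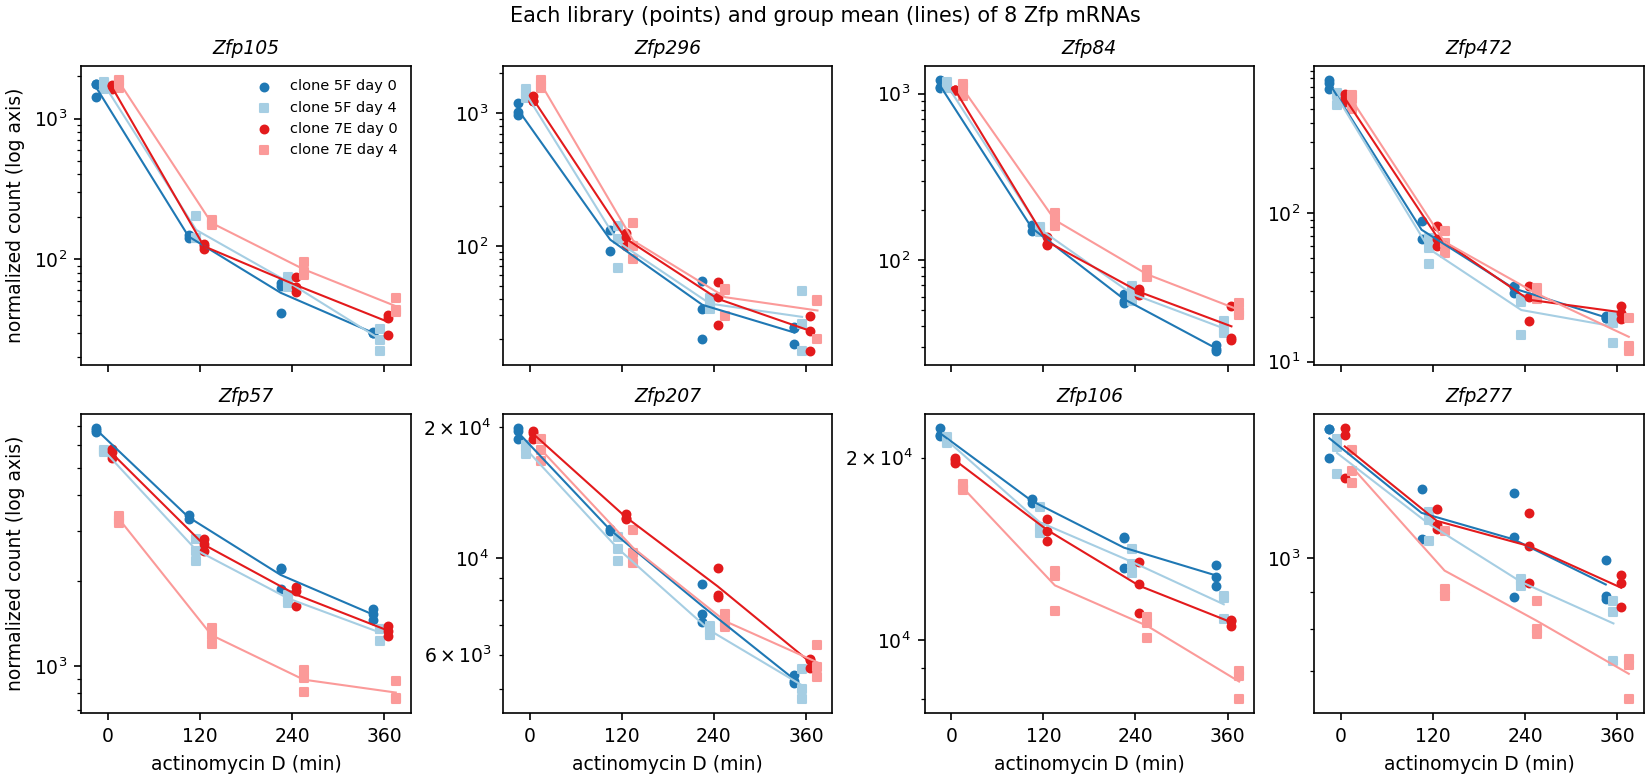
Normalized counts (log axis) of 8 Zfp mRNAs against minutes of actinomycin D; points are libraries, lines are group means, colours mark clone and symbols the day of 4OHT. Zfp105 falls from between 1434 and 1774 in the mock libraries of clone 5F at day 0 to between 29.8 and 30.2 after 360 min, and Zfp106 from between 21741 and 22394 to between 12306 and 13332.

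Among members with at least 100 mock counts on average, the longest half-lives belonged to Zfp277, Zfp444, Zfp346 and Zfp106. Zfp106, an RNA-binding protein needed in motor neurons, had 21766, 21741 and 22394 normalized counts in the mock libraries of clone 5F at day 0, 16849 and 17095 after 120 min, 14783, 13136 and 14727 after 240 min and 12306, 13332 and 12734 after 360 min. The last pair of times overlapped and the others did not. Its half-life was 458 min (423 to 498 for 1 SE) and its slope 0.09 ± 0.02 log2 per hour (adjusted p = 0.000151, edgeR).

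Zfp277 had 1507, 1371 and 1504 normalized counts in the mock libraries and 880.3, 887 and 994 after 360 min, with a half-life of 556 min (473 to 675 for 1 SE). Zfp346, which binds double-stranded RNA, had 797, 878 and 824 in the mock libraries, 399 and 393 after 120 min and 483, 505 and 497 after 360 min, so its count was lowest at 120 min. Zfp444 had the same shape, with 287, 279 and 276, then 128 and 146, and 156, 158 and 173. For Zfp346 and Zfp444 the sign of the slope turned when only the mock and 120 min libraries were used, to -0.13 and -0.11 log2 per hour in clone 5F at day 0. Their half-lives of 539 and 555 min are accordingly not those of a simple exponential fall.

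Members with well known functions spanned the range. Zfp217, a partner of histone demethylase complexes, had a half-life of 91.4 min in clone 5F at day 0. Zfp148 and Zfp281, related factors of which Zfp281 acts in the exit from pluripotency, had 121 and 124 min, and Zfp91 had 140 min. Zfp622, a factor of ribosome maturation, had 161 min, and Zfp57, the KRAB protein that keeps imprints, had 166 min. Zfp207, a microtubule-associated protein of mitosis and the most abundant member, had 191 min and Zfp330 had 212 min. Zfp568, a KRAB protein that represses a placental Igf2 transcript, had 219 min, and Zfp462, Zfp638 and Zfp326 had 227, 245 and 255 min. Zfp462, Zfp638 and Zfp326 had slopes of -0.05, -0.03 and -0.02 log2 per hour that missed the threshold in clone 5F at day 0 (adjusted p = 0.0672, 0.143 and 0.598, edgeR), which does not show that they decayed like the typical gene.

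The gap to the other mRNAs was present at every level and length. The members had a median of 10.1 RPKM in the tagged mESC lines, against 21.2 for all mRNAs, and a median transcript length of 3982 against 3096 nt. In each of 5 bins of RPKM the members' median half-life in clone 5F at day 0 was below that of all mRNAs. It was 159 against 330 min at 20 RPKM and over (36 members), 121 against 255 min between 10 and 20 (19 members), and 118 against 244 min between 5 and 10 (24 members). It was 135 against 224 min between 2 and 5 (23 members) and 94.7 against 231 min below 2 (4 members). In 4 bins of transcript length the members' median was also lower in each, from 191 against 375 min under 2000 nt to 135 against 249 min at 6000 nt and over.

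The number of fingers, which the choice by symbol did not use, ordered the half-lives. Members with 0 to 4 fingers had a median half-life of 183 min (n = 34), those with 5 to 9 fingers 121 min (n = 23) and those with 10 or more 107 min (n = 42). All 42 members with 10 or more fingers were below the median half-life of the table, against 25 of 34 with 0 to 4 fingers. The Spearman rho between fingers and half-life was -0.41 over the 99 members with sequence. The 3 finger classes also differed in level, with medians of 12.6, 10.8 and 8.09 RPKM, and the order was present among members at 10 RPKM and over, where the medians were 170, 121 and 115 min (n = 22, 12 and 17).

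The same order was not seen outside the class. Other mRNAs with 5 to 9 fingers had a median half-life of 127 min (n = 34), close to that of the members, whereas those with 10 or more had 197 min (n = 18), and those with no finger had 290.5 min (n = 6488). A KRAB pattern was found in 21 of the 99 members and in 23 of the 6725 mRNAs with sequence. Members with the pattern had a median half-life of 112 min and the other 78 had 135 min. Among members with 10 or more fingers the values were 93.2 min with the pattern (n = 13) and 109 min without it (n = 29). The pattern misses boxes that depart from it, so members without a match may still hold a KRAB box.

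**Figure D3:**
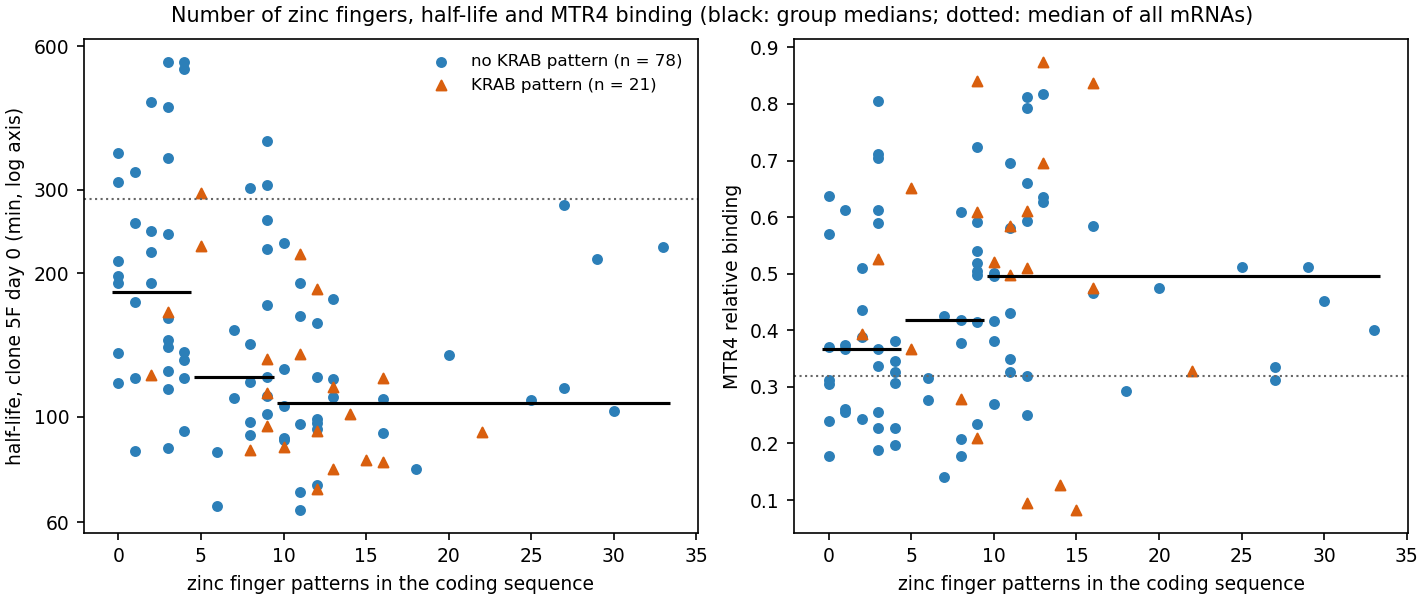
Half-life in clone 5F at day 0 (left, minutes, log axis) and MTR4 relative binding (right) against the number of C2H2 fingers for the 99 members with sequence; triangles mark the 21 with a KRAB pattern, black lines are medians of 0 to 4, 5 to 9 and 10 or more fingers, and dotted lines the medians over all mRNAs. The half-life medians step down from 183 to 121 and 107 min, and the MTR4 medians step up from 0.367 to 0.419 and 0.497.

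AU-rich elements in the 3′ UTR are a known signal for rapid decay. The motif TATTTAT, searched on the transcript strand, was present in 29.3% of members and 28.5% of all mRNAs with sequence, and the shorter ATTTA, which it contains, in 72.7% and 67.4%. The members' 3′ UTRs were longer, with a median of 1495 against 1003 nt. At matched length TATTTAT was in 10.5% of members and 12.8% of all mRNAs under 1000 nt, in 19.0% and 32.2% between 1000 and 2000 nt, and in 52.5% and 55.2% at 2000 nt and over. Members with it had a median half-life of 124 min (n = 4) under 1000 nt, 92.7 min (n = 4) between 1000 and 2000 nt and 121 min (n = 21) at 2000 nt and over. Members without it had 162 min (n = 34), 116 min (n = 17) and 134.5 min (n = 19). All mRNAs had 263, 226 and 225 min with it and 342, 279 and 264 min without it. The motif's part in the half-lives was not tested.

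Other families of regulatory zinc finger genes and the corepressor machinery were set beside the members. The median half-life in clone 5F at day 0 was 133 min over 21 Zbtb mRNAs, 123 min over 11 Zscan and Zkscan mRNAs and 104 min over 12 Klf mRNAs. In the same group 18 of 21 Zbtb, 9 of 11 Zscan and Zkscan and 12 of 12 Klf mRNAs were faster than the typical gene. The 13 listed mRNAs of the KRAB corepressor machinery had a median of 344 min. Of the 16 tested with counts, 8 were slower (50%) and 6 faster (37.5%). The shares were 29.9% and 33.9% of all genes tested, and 39% and 35.8% of the mRNAs of the table. Trim28 had a half-life of 553 min and Setdb1 344 min, and Dnmt1, which maintains DNA methylation, 595 min. The machinery was divided: Smarcad1, a chromatin remodeller, had 132 min and Morc3 147 min.

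Relative binding by crosslinking and analysis of cDNAs (CRAC) showed the members with more MTR4 and less SKIV2L than most mRNAs. For each mRNA, the authors divided the pooled counts of MTR4, SKIV2L and XRN1 by their sum, so the 3 values add to 1 and a high share of one protein lowers the others. The libraries of each protein were pooled, so these values have no replicate error. The median relative binding of the members was 0.428 to MTR4 against 0.319 over all mRNAs, 0.163 to SKIV2L against 0.267, and 0.387 to XRN1 against 0.337. AVEN binding, given relative to the same sum, had a median of 0.277 against 0.295. The low SKIV2L share was not particular to the members. It was 0.161 over the Zbtb, 0.164 over the Zscan and Zkscan and 0.148 over the Klf mRNAs. The MTR4 medians of these 3 lists were 0.404, 0.347 and 0.227.

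For SKIV2L, 14 of 106 members lay above the table's median, 57 were among the lowest 25% and 32 among the lowest 10%, and 0 were among the highest 10%. For MTR4, 77 members lay above the table's median and 49 among the highest 25%. MTR4 held the largest share of the 3 proteins in 55 members (51.9%), against 35.4% of all mRNAs. XRN1 held it in 46 members (43.4%), against 38.1%, and SKIV2L in 5 (4.72%), against 26.5%.

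**Figure D4:**
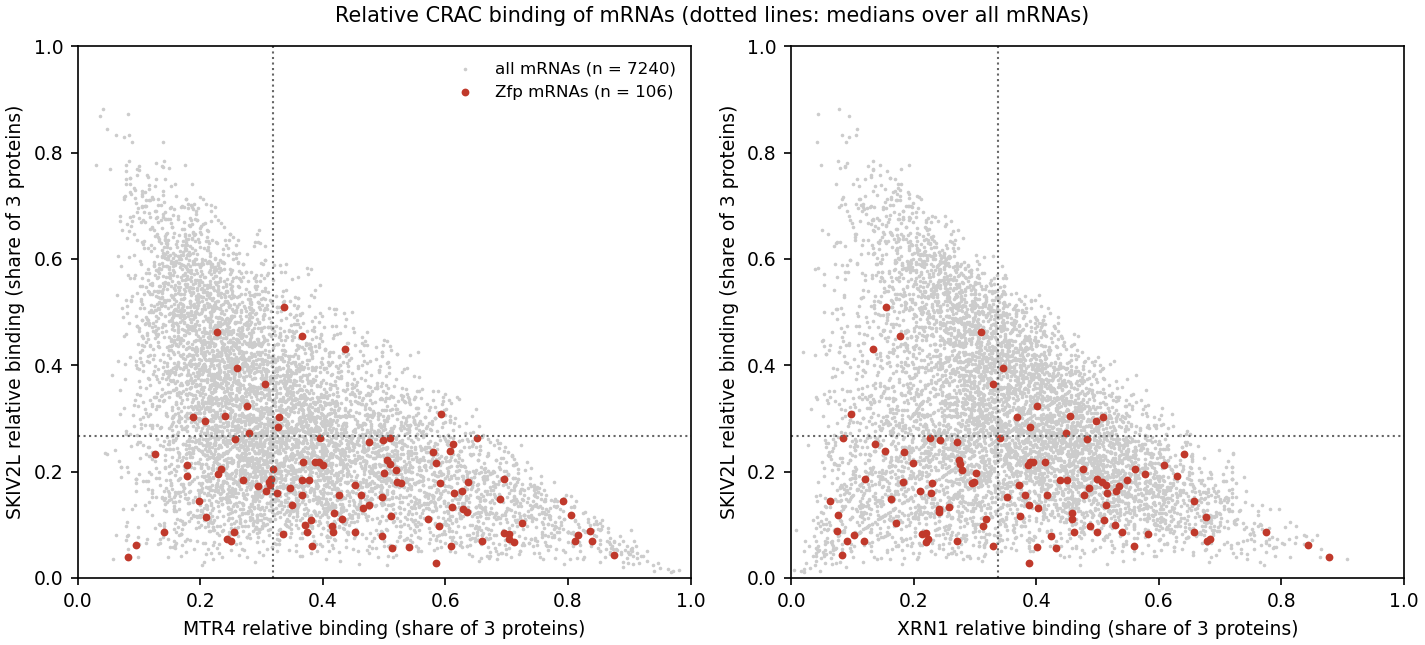
Relative CRAC binding to SKIV2L (vertical axis, share of the 3 proteins) against that to MTR4 (left) and XRN1 (right) for all 7240 mRNAs (grey) and the 106 Zfp mRNAs (red), with dotted lines at the medians over all mRNAs. Of the 106 Zfp mRNAs, 92 lie below the SKIV2L median of 0.267.

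The SKIV2L gap and the MTR4 gap depended differently on level. At 20 RPKM and over the members' medians were 0.382 for MTR4 against 0.269 and 0.213 for SKIV2L against 0.348. Between 10 and 20 RPKM the MTR4 medians were equal, 0.349 and 0.349, while SKIV2L was 0.156 against 0.236. Between 5 and 10 RPKM they were 0.510 against 0.401 for MTR4 and 0.141 against 0.199 for SKIV2L. Between 2 and 5 RPKM they were 0.592 against 0.499 for MTR4 and 0.115 against 0.159 for SKIV2L. Below 2 RPKM, with 4 members, MTR4 was lower in the members, 0.553 against 0.631, and SKIV2L higher, 0.156 against 0.128. In the authors' values corrected for RPKM the members' medians were 0.415 for MTR4 and 0.179 for SKIV2L, against 0.317 and 0.269.

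Single members lay far from these medians. Zfp719, Zfp324 and Zfp612, each with a KRAB pattern, had the highest MTR4 binding, 0.874, 0.840 and 0.837. Zfp12, Zfp472 and Zfp787 had the highest XRN1 binding, 0.878, 0.843 and 0.774. The highest SKIV2L binding was that of Zfp277 at 0.509, Zfp622 at 0.462 and Zfp110 at 0.455, and the first of these also had the longest half-life of the class. AVEN binding was highest for Zfp365 at 0.710, Zfp568 at 0.650 and Zfp251 at 0.503. Among the 6 shortest-lived members the shares were mixed: MTR4 was largest in Zfp105 (0.580), Zfp46 (0.792) and Zfp719 (0.874), and XRN1 in Zfp84 (0.515), Zfp472 (0.843) and Zfp296 (0.401).

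Within the class, relative binding and half-life were only loosely related. The Spearman rho with half-life in clone 5F at day 0 was -0.08 for MTR4, 0.21 for SKIV2L and -0.01 for XRN1 over the 106 members. Over the 7219 mRNAs with a finite half-life it was -0.22, 0.38 and -0.16. Binding was measured in cell lines other than the clones, and both measures vary with level, so these are descriptions across genes. MTR4 binding had medians of 0.367, 0.419 and 0.497 for 0 to 4, 5 to 9 and 10 or more fingers. This order was not kept within level. At 10 RPKM and over the medians were 0.367, 0.341 and 0.496, and under 10 RPKM 0.458, 0.540 and 0.500. Members with a KRAB pattern had 0.510, against 0.408 without.

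The slope on time was tested for a difference between day 0 and day 4 of 4OHT. Counts were scaled as for the half-lives. A change in decay shared by most mRNAs is therefore removed before this test and before that between the clones. The drug was given to remove the SKIV2L catalytic domain. Whole-gene counts did not show the deletion in clone 5F. In clone 7E Skiv2l was already below clone 5F at day 0. In clone 5F, 0 of 106 members passed in either direction, where 0.134% of the 17901 genes tested decayed more slowly and 0.0614% more quickly at day 4. At an unadjusted p below 0.05 there were 2 members, and the smallest adjusted p was 0.0632 (edgeR). DESeq2 called 1 member and limma voom 0. The estimates lay between -0.07 and 0.14 log2 per hour with a median standard error of 0.06, so changes of the size of this error were not detectable in single members. Libraries of 1 time point that share a replicate number often deviated from their group means together, in 6 of 11 pairs between the days of clone 5F, 6 of 12 of clone 7E and 10 of 11 between the clones at day 0 (correlation over 0.1). With the replicate number as a block within each time point, a fit chosen after seeing the data, 1 member of clone 5F passed as slower, Zfp365, and 0 as quicker, against 0.413% and 0.251% of all genes tested.

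In clone 7E, 1 member, Zfp365, decayed more slowly at day 4 and 0 more quickly, where 0.402% and 0.482% of the 17417 genes tested did. Zfp365, a DISC1-binding protein of the brain with 0 C2H2 fingers by the pattern, was also the member with the highest AVEN binding. At day 0 its normalized counts were 2094, 2238 and 2053 in the mock libraries, 1128, 1203 and 1183 after 120 min, 544, 490.4 and 551 after 240 min and 366, 362 and 317 after 360 min. At day 4 they were 1764, 1862 and 1779, then 782, 969 and 1005, then 851, 735 and 754, and finally 602, 576 and 486. The day 4 libraries were lower than those of day 0 at 0 and 120 min and higher at 240 and 360 min, without overlap at any time.

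The half-life of Zfp365 was 134 min at day 0 and 225 min at day 4 in clone 7E, and the slope differed by 0.18 ± 0.03 log2 per hour (adjusted p = 0.00278, edgeR). With the block within each time point the difference was 0.18 ± 0.03 (adjusted p = 0.000335, edgeR). The call was lost when any 1 of the 3 replicate numbers was left out and without 360 min, at differences between 0.17 and 0.20. In clone 5F the half-lives were 118 and 164 min, and the slope differed by 0.14 ± 0.03 log2 per hour (adjusted p = 0.0632, edgeR), the smallest adjusted p of the members there. It missed the threshold in that fit and passed with the block within each time point, at 0.14 ± 0.02 (adjusted p = 0.00217, edgeR). Between the clones at day 0, 0 of 106 members differed in decay, where 0.0338% of the 17766 genes tested were slower and 0.00563% faster in clone 7E, and 4 members had an unadjusted p below 0.05 (edgeR).

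The block within each time point called more members in clone 7E. At day 4 it passed 9 members as slower and 2 as quicker, against 2.56% and 2.18% of all genes tested. The quicker ones were Zfp516 and Zfp110, at -0.10 ± 0.02 and -0.08 ± 0.02 log2 per hour, and the slower ones included, beside Zfp365, Zfp764 at 0.16 ± 0.04, Zfp423 at 0.11 ± 0.02 and Zfp217 at 0.07 ± 0.02. Between the clones at day 0 it passed 24 members as slower in clone 7E and 3 as quicker, against 6.37% and 3.51%. The differences of the slower members were small, between 0.03 and 0.15 log2 per hour. Zfp46 had the largest, at 0.15 ± 0.04, and Zfp148, Zfp281, Zfp568 and Zfp207 had 0.06 ± 0.01, 0.05 ± 0.01, 0.03 ± 0.01 and 0.03 ± 0.01. The 3 quicker members were Zfp428, Zfp219 and Zfp369, at -0.06 ± 0.02, -0.05 ± 0.01 and -0.04 ± 0.01. Zfp110, Zfp516, Zfp219 and Zfp369 are named here after their values were seen. The counts of decay calls thus depended on the block.

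Mock levels changed with 4OHT by small amounts. In clone 5F, 15 members were higher at day 4 and 13 lower, near the 13% and 11.5% of the 16349 genes tested. In clone 7E, 13 were higher (12.3%) and 31 lower (29.2%), against 21% and 19.1% of the 16333 genes tested. Here 21.7% of the mRNAs of the table were higher and 25.4% lower, so the share of lower members was near that of the table. In both clones 0 members passed with a change above 1 on the log2 scale in either direction. These are relative levels, scaled to the typical gene. The ERCC spike-ins took 0.638 to 0.657% of counts in the mock libraries of clone 7E at day 4 and 0.309 to 0.319% at day 0, and scaled to each library's own spike-ins all 106 members were lower at day 4, with a median over all genes of -1.11. In bulk samples fewer cells of a type and less RNA per cell cannot be told apart.

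Zfp57 showed the largest fall of the members in clone 7E, though not in clone 5F. Its mock counts were 6920.1, 6828 and 6696 in clone 5F at day 0 and 5745, 5697 and 5795 at day 4, and 5825, 5674 and 5407 in clone 7E at day 0 and 3374, 3280.1 and 3207 at day 4. The day 4 libraries lay below the day 0 libraries in both clones without overlap. The change was -0.24 ± 0.04 in clone 5F (adjusted p = 0.000246) and -0.77 ± 0.05 in clone 7E (adjusted p = 8.11e-12, edgeR). Its decay showed no called change in either clone, with half-lives of 166 and 172 min in clone 5F and 176 and 181 min in clone 7E at day 0 and day 4.

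The 9 members lower at day 4 in both clones were Zfp41, Zfp57, Zfp275, Zfp317, Zfp324, Zfp365, Zfp692, Zfp740 and Zfp770. Of all genes tested, 11.5% were lower in clone 5F and 19.1% in clone 7E, and the share lower in both is not given here. Zfp740, among the abundant members, had 7446, 7063 and 7112 counts in clone 5F at day 0 and 5930.0, 5718 and 5632 at day 4, and 6053, 5959.8 and 6373 in clone 7E at day 0 and 4272, 4305 and 4112 at day 4. Both clones fell without overlap, by 0.32 and 0.53 on the log2 scale. Zfp764, of the gene cluster on chromosome 7 named below, fell by 0.65 ± 0.10 in clone 7E (adjusted p = 1.36e-05, edgeR), and Zfp799 fell by 0.54 ± 0.07.

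The 8 members higher at day 4 in both clones were Zfp296, Zfp407, Zfp428, Zfp516, Zfp574, Zfp609, Zfp655 and Zfp689. Of all genes tested, 13% were higher in clone 5F and 21% in clone 7E, and the share higher in both is not given here. Zfp428 had 618, 711 and 742 counts at day 0 and 990.3, 876 and 1028 at day 4 in clone 5F, a change of 0.49 ± 0.07. It had 559, 644 and 636, and then 865, 799.7 and 856, in clone 7E, a change of 0.46 ± 0.07. Zfp689 rose by 0.54 ± 0.10 and 0.43 ± 0.10, and Zfp296 by 0.40 ± 0.07 and 0.39 ± 0.06, relative to the typical gene. With each library's own spike-ins, which moved the median of all genes in clone 7E to -1.11, Zfp296, Zfp428, Zfp655 and Zfp689 had between -0.74 and -0.64 there and so stayed above the typical gene.

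**Figure D5:**
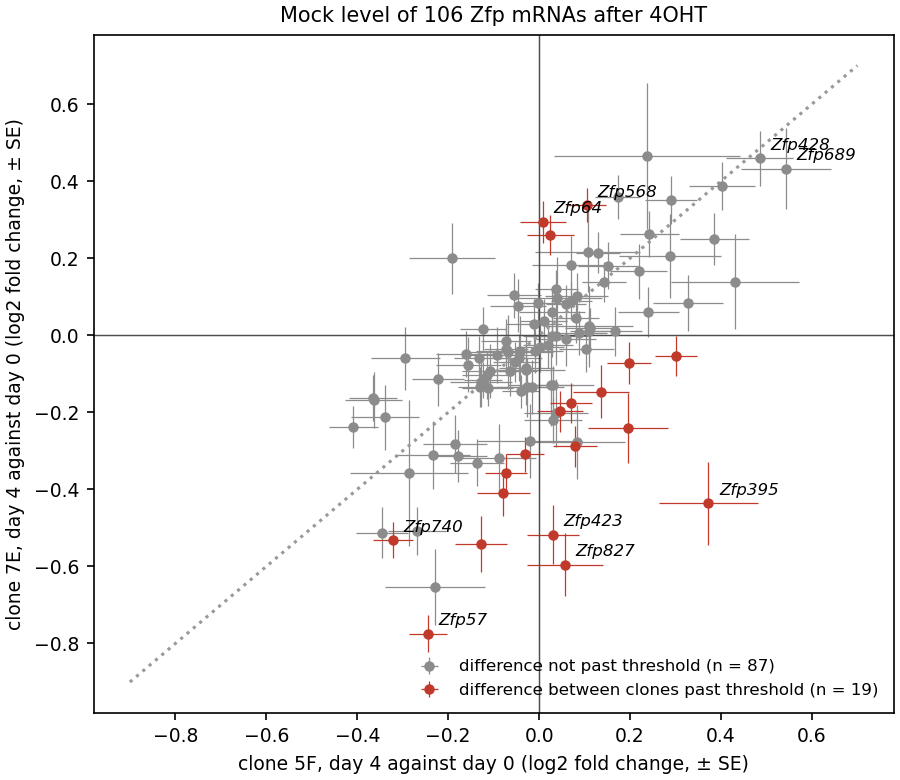
Change in mock level from day 0 to day 4 of 4OHT (log2 fold change relative to the typical gene, bars ± SE) in clone 7E (vertical) against clone 5F (horizontal) for the 106 Zfp mRNAs; red points are the 19 whose response differed between the clones, and the dotted line marks equal change. Zfp57 lies at -0.24 and -0.77, and Zfp395 at 0.37 and -0.44.

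The difference between the clones was tested as the interaction of clone with day. The response of 16 members was lower in clone 7E and that of 3 higher, against 5.28% and 6.68% of the 17209 genes tested. Without replicate 1 these counts were 4 and 0, and without replicate 3 they were 10 and 2. Without the libraries that stood apart, among them replicate 3 of clone 7E at day 4, they were 20 and 6. Zfp57 differed by -0.53 ± 0.06 (adjusted p = 8.14e-07, edgeR). Zfp395 had 144, 136 and 136 counts in clone 5F at day 0 and 166, 181 and 189.8 at day 4, but 197, 217 and 204 in clone 7E at day 0 and 145, 157 and 153 at day 4. It rose in the former and fell in the latter without overlap, and the difference was -0.81 ± 0.14 (adjusted p = 0.000318, edgeR). It was the only member called in opposite directions.

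Zfp827 stayed between 346 and 419 in the mock libraries of clone 5F on both days and fell in clone 7E from 709, 683 and 578 to 452, 436 and 413, a difference of -0.65 ± 0.12. Zfp423, a factor of adipocyte commitment, differed by -0.55 ± 0.11. Its day 4 counts in clone 7E were 1198, 1081 and 1467, of which the third was well above the others and still below the day 0 counts of 1785, 1844 and 1754. Zfp568, Zfp64 and Zfp512 responded more highly in clone 7E, by 0.23 ± 0.06, 0.28 ± 0.07 and 0.24 ± 0.06, and with each library's own spike-ins, which moved the median of all genes to -1.03, they had -0.80, -0.74 and -0.79.

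At day 0, before 4OHT, 43 members were higher and 15 lower in the mock libraries of clone 7E than in those of clone 5F, against 20.4% and 19.4% of the 16299 genes tested and 29.2% and 20.9% of the mRNAs of the table. With the own spike-ins of each library, which moved the median of all genes by -0.17, 20 were higher and 46 lower. The median of the members was above that of all genes under both scalings, at 0.065 against -0.0022 and at -0.10 against -0.17. Zfp827, Zfp358, Zfp319 and Zfp462 were the most raised, by 0.86 ± 0.08, 0.85 ± 0.09, 0.80 ± 0.11 and 0.66 ± 0.05.

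Zfp358 had 170.0, 168 and 169 counts in clone 5F and 321, 301 and 289.7 in clone 7E. Zfp462, a chromatin-associated protein needed in neural development, had 4118, 4225 and 3916 in clone 5F and 6576, 6693 and 6017 in clone 7E (adjusted p = 6.41e-11, edgeR). In each the clones did not overlap. Zfp275, Zfp324, Zfp472 and Zfp57 were lower in clone 7E, by -0.47 ± 0.05, -0.34 ± 0.07, -0.32 ± 0.07 and -0.27 ± 0.04. Of the 16 genes of the KRAB corepressor machinery, 7 were lower and 0 higher in clone 7E at day 0, with Trim28 at -0.27 ± 0.04 and Cbx1 at -0.35 ± 0.04.

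The related lists were counted in the same way. In clone 5F, where 13% of all genes tested were higher and 11.5% lower, 2 of 21 Zbtb genes were higher and 2 lower, 0 and 3 of 11 Zscan and Zkscan genes, 7 and 1 of 12 Klf genes, and 3 and 1 of 16 corepressor genes. In clone 7E, where 21% were higher and 19.1% lower, the same lists had 2 higher and 9 lower, 1 and 4, 7 and 2, and 3 and 4. The Klf genes were the list with the most raised members, 58.3% in each clone, with a median change of 0.17 and 0.15 against 0.01 and -0.05 for the Zfp members. The corepressor genes that changed included Dnmt1, higher in both clones by 0.25 ± 0.04 and 0.22 ± 0.04, and Smarcad1, lower in both by 0.15 ± 0.05 and 0.18 ± 0.05.

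By position, 29 of the 106 members (27.4%) lie on chromosome 7, which holds 7.49% of the mRNAs of the table. With neighbours joined when 200000 nt or less apart, 12 clusters hold 32 members. The largest, chr7:127233061-127449158 on GRCm38, holds Zfp553, Zfp771, Zfp768, Zfp764, Zfp688 and Zfp689. Its members did not respond alike: Zfp689 was higher at day 4 in both clones and Zfp764 lower in clone 7E. Libraries did not keep the strand, so reads from overlapping genes in such clusters cannot be assigned to one of them.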

How the data were processed

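The authors depleted rRNA, made unstranded libraries with ERCC spike-ins, mapped 50 nt reads with STAR 2.5.0a to GRCm38 and deposited raw counts of uniquely mapped reads per Gencode M16 gene. The authors' deposited relative binding is a fraction of pooled CRAC counts over MTR4, SKIV2L and XRN1, and that of AVEN a ratio to the same sum. The RPKM values, also made by the authors, were measured in the tagged lines, and the authors' deposited transcript lengths and half-lives (min) were used for description only. Columns with the authors' own fold changes and adjusted p values, which hold their RNA-seq and CRAC comparisons, were left unused.

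Counts were scaled by DESeq2 size factors, computed for each time point alone, and by 1 spike-in factor for each time point, which used the 34 ERCC spike-ins whose mean exceeded 50 counts. For half-lives, a line was fitted to ln(normalized count + 1) against time, and ln 2 was divided by its negative slope. Tests used edgeR 4.0.16 (quasi-likelihood, Benjamini-Hochberg over all genes that pass edgeR's filterByExpr with the groups of the fit, threshold 0.05) in R 4.3.3, with limma 3.58.1 and DESeq2 1.42.0 as alternatives. These were tested on simulated data. Other scalings, filters, pseudocounts, time windows, a replicate block and each replicate left out were also tried. Total gene counts were 24440935 to 34114250 per library, and 105 of the 106 members had at least 100 counts on average in the mock libraries of clone 5F at day 0. No replicate pair was within sampling noise, since the chi-square per degree of freedom was at least 3.01. Same-numbered libraries of the clones at day 0 deviated together in the mock group (correlations of 0.15 to 0.35 in 3 pairs) and at 120 min (0.28 to 0.34), 240 min (0.42 to 0.76) and 360 min (0.06 to 0.34). Between days they did so at 120 min (0.35 to 0.45) and 240 min (0.11 to 0.52) of clone 5F, not in mock libraries, and within a day no time point paired with the mock group in every pair. The number was therefore also used as a block within each time point. Blocking the mock libraries at day 0 gave 48 higher and 22 lower members.

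Fingers (C, 2 residues, C, 12 residues, H, 3 to 5 residues, H) and a short KRAB A box pattern were counted on translated Gencode M21 coding sequences of the deposited length, and linker positions come from the same annotation. Members and lists were chosen with earlier results of these data known. Members were named for the 5 highest RPKM, the 6 shortest and 4 longest half-lives, the 3 highest values of each protein's binding, up to 4 of the largest called changes in each direction of each test, and known function. CRAC, ribosome profiling and other RNA-seq libraries were not analysed here.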

Additional observations from a re-analysis of the deposited data

Results flagged for a closer look

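The change in mock level from day 0 to day 4 of 4OHT differed between the clones for 19 of the 106 Zfp mRNAs by the interaction of clone with day. Of these, 3 had a higher response in clone 7E (2.83% of members) and 16 a lower one (15.1%). The shares were 6.68% and 5.28% of all genes tested, and 7.36% and 8.42% of the mRNAs of the authors' table. By this test Zfp395 differed by -0.81, Zfp827 by -0.65, Zfp423 by -0.55 and Zfp57 by -0.53 on the log2 scale (clone 7E minus clone 5F). Zfp64 differed by 0.28, Zfp512 by 0.24 and Zfp568 by 0.23. Each genotype is 1 clone, so loss of Aven, the Skiv2l tag and the clone cannot be told apart. The ERCC spike-ins took 0.309 to 0.319% of counts in the mock libraries of clone 7E at day 0 and 0.638 to 0.657% at day 4, and with each library's own spike-ins, which moved the median difference of all genes to -1.03, the members had a median of -1.07. In the mock libraries of clone 7E at day 4, replicate 3 stood apart from the others (chi-square per degree of freedom of 16.2 and 16.2 against 6.30 between them). Without it and replicate 2 of clone 5F at day 0, which also stood apart, 6 members had a higher and 20 a lower response.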

How the results depend on the processing

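The median half-life of the Zfp mRNAs lay between 71.4 and 155 min under the alternatives tried, and the values given here are those that moved. The cause of each shift was not tested. With only the mock and 120 min libraries the median half-life over the members was 73.3, 71.4, 77.4 and 76.6 min (clone 5F at day 0 and day 4, then clone 7E), and without 360 min it was 104, 102, 109 and 112 min. With a pseudocount of 5 it was 129.9, 134, 140.3 and 151 min. The authors' deposited half-lives, an alternative added after seeing the data, gave 133, 141 and 150.2 min for the last 3 of these groups, and each library's own spike-ins gave 155 min in clone 7E at day 4. Without the libraries that stood apart, an alternative added after seeing the data, it was 126 min in clone 5F at day 4 and 133 min in clone 7E at day 0. Leaving out a replicate gave 125 to 129 min in clone 5F at day 0, 132 to 134 min at day 4, 136 to 138 min in clone 7E at day 0 and 147 to 148 min at day 4. Among mRNAs of at least 5 RPKM the members' median was 0.387 for MTR4 and 0.179 for SKIV2L, and corrected for RPKM it was 0.179 for SKIV2L.

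Without the mock libraries 55 members were faster than the typical gene in clone 5F at day 4 and 39 in clone 7E at day 4, and 11 were slower in clone 7E at day 0. With only the mock and 120 min libraries 3 members were slower at day 4 in each clone, and the slopes of Zfp346 turned to -0.13, -0.023 and -0.092 log2 per hour in clone 5F at day 0, clone 5F at day 4 and clone 7E at day 0. Those of Zfp444 turned to -0.11, -0.0079, -0.081 and -0.041 in the 4 groups. Leaving out a replicate gave 80 to 83, 85 to 86, 77 to 79 and 75 to 84 faster members in the 4 groups, and 5 to 6, 5 to 6, 5 to 6 and 3 to 5 slower ones.

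For the change in decay with 4OHT, DESeq2 and a filter of 50 counts each called 1 member as slower in clone 5F, and 0 were called in clone 7E without 360 min. The replicate block within each time point, added after seeing the data, called 1 slower member in clone 5F, 9 slower and 2 quicker in clone 7E, and 24 slower and 3 quicker in clone 7E than in clone 5F at day 0. Leaving out any 1 replicate left 0 slower members in clone 7E, and also 0 in clone 5F and between the clones.

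Mock levels depended most on the scaling. With each library's own spike-ins, 7 members were higher at day 4 in clone 5F, 0 were higher and 106 lower in clone 7E, 20 were higher and 46 lower in clone 7E than in clone 5F at day 0, and 0 had a higher and 106 a lower response in clone 7E. This scaling moved all genes alike, with medians of -0.07, -1.11, -0.17 and -1.03 in these 4 comparisons. Without the libraries that stood apart 6 members had a higher response in clone 7E. With each library's own spike-ins, Zfp296 changed by -0.71 in clone 7E, Zfp428 by -0.64, Zfp655 by -0.74 and Zfp689 by -0.67. Under the same spike-in scaling the differences in response of Zfp512, Zfp568 and Zfp64 were -0.79, -0.80 and -0.74. Leaving out a replicate gave 9 to 18 higher and 8 to 22 lower members at day 4 in clone 5F, 9 to 15 and 20 to 29 in clone 7E, 30 to 42 and 7 to 14 between the clones at day 0, and 0 to 4 and 4 to 13 for the difference in response. With the replicate block the counts for day 4 against day 0 were 13 higher and 10 lower in clone 5F and 12 and 25 in clone 7E, and 48 higher and 22 lower between the clones at day 0. In the mock libraries of day 0 and day 4, 0 of 6 libraries per clone correlated best with their own number, and this block, common to all time points, changed the call of no member named here. A filter at a mean of 10 counts, chosen after seeing the data, left every count of called members within 1.5 times of the value reported. Depth limits small changes in members with few counts. It is not stated whether the technical replicates came from separate cultures, and they hold no variation between clones of a genotype.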
